A study of Sus scrofa with 8 samples.

Results

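The genes described here are 9 enzymes and enzyme subunits that break down branched-chain amino acids or move amino groups in muscle. They were picked by gene symbol from the platform's annotation table (BCKDHA, BCKDHB, DBT, BCAT2, IVD, GPT, GLUL, GOT1 and GOT2). All 9 were on the array, among 6765 genes with a symbol of their own, and were read by 14 of the 23999 probe sets. All 14 passed the filter on low values. RNA came from a thigh muscle, the biceps femoris, of female domestic piglets in a model of acute quadriplegic myopathy, the limb weakness of intensive care. The 4 corticosteroid arrays came from piglets that received bolus doses of hydrocortisone, a glucocorticoid, for 5 days. The 4 control arrays came from piglets kept under sedation and mechanical ventilation for 5 days. Both groups were immobilized with isoflurane, morphine and ketamine, ventilated through a tracheotomy, given crystalloid fluid and glucose, and treated with streptomycin and benzylpenicillin. The control protocol adds an endotoxin infusion of 36 µg/kg/h for 1 h, which their source label leaves out and which the corticosteroid protocol does not mention. Mean body weight was 26.4 kg in the corticosteroid text and 25.5 kg in the control text. An infusion of the neuromuscular blocker pancuronium is described for the series without saying which animals received it. Endotoxin, any processing batch and corticosteroid treatment therefore cannot be told apart. The control text counts 4 piglets and the corticosteroid text 8, with 4 arrays in each group. Whether the 8 arrays stand for 8 animals is not stated in the labels, and the p-values therefore reflect spread among these arrays that may be partly technical.

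Muscle is the main site where leucine, isoleucine and valine lose their amino group. The mitochondrial aminotransferase BCAT2 passes that group to glutamate, and the branched-chain keto acid dehydrogenase complex, built from BCKDHA, BCKDHB, DBT and a shared DLD subunit, then commits the carbon skeleton to oxidation. GPT and GLUL turn the collected nitrogen into alanine and glutamine, the forms in which muscle exports it to liver, gut and kidney, and glucocorticoids are known to favour this export during protein wasting. GOT1 and GOT2 exchange amino groups between glutamate and aspartate in the cytosol and the mitochondrion.

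Levels are on the log2 scale, and a difference is the corticosteroid mean minus the control mean. In the deposited table the corticosteroid columns appear to follow another row order than the control columns, so their values were re-assigned to the probe IDs sorted with full stops ignored. Of the 14 probe sets, 11 stand in the same row in both orders, and their values do not depend on this step. The leading probe sets of BCAT2 and GPT and 1 lower probe set of GLUL lie in rows that it moves. The 8 muscle genes on the array, among them CKM, TTN and MYLPF, were at or above the 98.9th percentile of mean level on the control arrays. On the corticosteroid arrays their brightness depends on the re-assignment, since 7 of the 8 lie in moved rows and in the rows as deposited their median difference was -6.40. Array medians ran from 5.863 to 5.899 in the corticosteroid group and from 5.881 to 5.965 in the control group. Precision is limited by having 4 arrays a group, and the median standard error of a difference was 0.219 over the 14361 probe sets tested.

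All 9 genes had higher means in corticosteroid-treated muscle than in control muscle, and so did all 14 probe sets, but no gene passed the test. With limma and Benjamini-Hochberg adjustment over all probe sets, 0 of the 9 genes had an adjusted p under 0.05, against 0% of the 14361 probe sets tested, where the smallest adjusted p was 0.469. The adjusted p of the 14 probe sets ran from 0.479 to 0.909. At an unadjusted p under 0.05, BCKDHB and GPT were 2 of 9 genes, both higher. The same was true of 9.49% of all probe sets tested, with 4.78% higher and 4.71% lower. The median difference of the 9 genes was 0.49, against 0.02 over all probe sets tested, of which 52.8% had higher means with corticosteroid and 7.48% had a difference at least as large as 0.49. No gene of the 9 had all corticosteroid arrays above all control arrays, which held for 3.05% of probe sets tested, while 2.51% lay wholly below and 5.56% did not overlap in either direction. The count of 2 genes was 1 without control replicate 2, 3 or 4 (BCKDHB each time), 5 without control replicate 1 and 4 without corticosteroid replicate 2. Without corticosteroid replicate 4 the 2 genes were BCKDHB and GLUL. The count was also 1 without control replicate 2 and corticosteroid replicate 4 together, but that gene was GLUL (difference 0.59, unadjusted p = 0.0339 and adjusted p = 0.756 in limma). In that fit the unadjusted p was 0.0857 for BCKDHB and 0.159 for GPT.

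**Figure D1:**
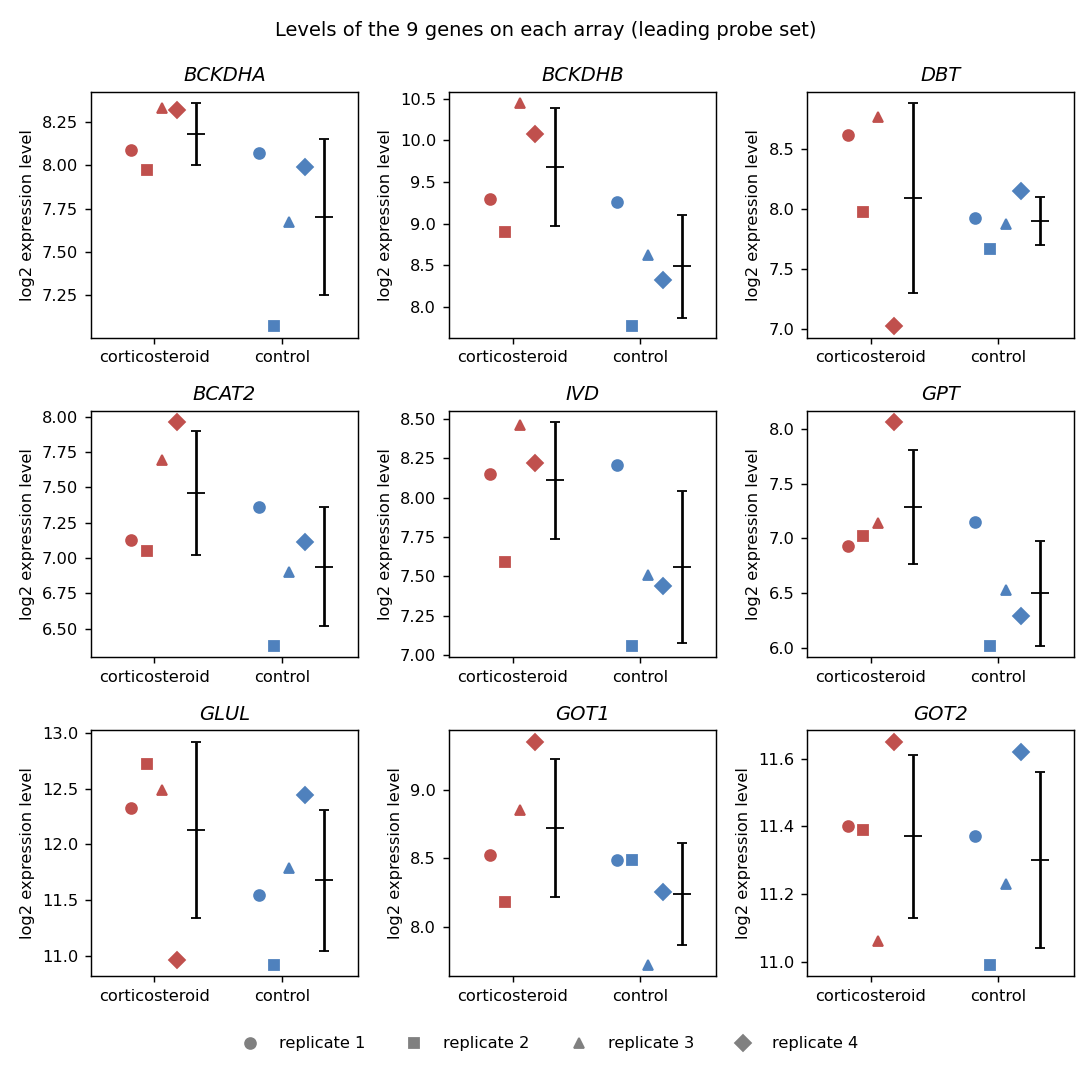
Levels of the 9 genes on each array. Each panel shows the log2 expression level of the leading probe set (y axis, own scale in each panel) on 4 corticosteroid arrays (left, red) and 4 control arrays (right, blue), with marker shapes for the replicate numbers and bars for the mean ± SD. Control replicate 2 was the lowest of the 8 arrays for 7 of the 9 genes, and the groups overlapped for every gene.

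The keto acid dehydrogenase subunits differed in how far they stood from control. BCKDHB, the beta subunit of the decarboxylase component, had log2 levels of 9.30, 8.90, 10.45 and 10.08 on corticosteroid replicates 1 to 4, against 9.26, 7.77, 8.62 and 8.33 on control replicates 1 to 4. Corticosteroid replicates 3 and 4 stood highest, and the groups overlapped because control replicate 1 lay above corticosteroid replicate 2. BCKDHB averaged 9.68 ± 0.71 with corticosteroid and 8.49 ± 0.62 in controls (SD, n = 4 each). The difference of 1.19 (SE 0.40, 95% interval 0.29 to 2.09) is a 2.28-fold higher mean and the largest of the 9 genes, with an unadjusted p of 0.015 and an adjusted p of 0.479 in limma. It ran from 0.93 to 1.45 when each array was left out.

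BCKDHA, the alpha subunit that carries the regulatory phosphorylation sites, had levels of 8.09, 7.97, 8.33 and 8.32 on corticosteroid arrays, against 8.07, 7.07, 7.67 and 7.99 on control arrays. Control replicates 1 and 4 lay above the lowest corticosteroid array, and control replicate 2 stood lowest of all. The difference was 0.48 (SE 0.24, 95% interval -0.06 to 1.02, adjusted p = 0.548 in limma), and 0.27 without control replicate 2. DBT, the transacylase core of the complex, had levels of 8.61, 7.97, 8.76 and 7.02 with corticosteroid, against 7.92, 7.66, 7.87 and 8.15 in controls. Corticosteroid arrays held both its highest and its lowest value, with replicate 4 lowest of the 8. Its difference of 0.19 (SE 0.35, 95% interval -0.60 to 0.99, adjusted p = 0.867 in limma) was 0.02 without corticosteroid replicate 1, -0.03 without corticosteroid replicate 3, 0.55 without corticosteroid replicate 4 and 0.11 without control replicate 2.

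Because subunits work together, their balance was also compared within each array, as the difference of 2 log2 levels. Such a difference has no absolute meaning between probe sets, and only its shift between groups can be read. BCKDHB minus BCKDHA was 1.21, 0.93, 2.12 and 1.75 on corticosteroid arrays, against 1.19, 0.70, 0.94 and 0.34 on control arrays. The shift of 0.71 was the largest of 5 pairs examined and did not pass (exact two-sided permutation p = 0.0857, adjusted p = 0.429 over 5 pairs). Groups of 4 against 4 cannot give an exact p below 0.0286, so a pair separating fully on its own could not pass after adjustment over 5 pairs. DBT minus BCKDHA shifted by -0.29 (exact permutation p = 0.714, adjusted p = 0.8), and by 0.12 without corticosteroid replicate 4.

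The steps on either side of the complex gave differences of similar size. BCAT2, the aminotransferase that starts the pathway, had levels of 7.13, 7.05, 7.69 and 7.96 with corticosteroid, against 7.36, 6.38, 6.90 and 7.11 in controls. Corticosteroid replicates 3 and 4 lay above every control, while replicates 1 and 2 lay below control replicate 1. Its difference was 0.52 (SE 0.27, 95% interval -0.10 to 1.13, adjusted p = 0.56 in limma), and 0.33 without control replicate 2. The direction rests on the re-assigned rows, since in the rows as deposited the BCAT2 difference was -2.67. BCAT2 minus BCKDHA shifted by 0.04 between groups (exact permutation p = 0.8, adjusted p = 0.8), and by -0.08 without corticosteroid replicate 4.

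IVD, which oxidizes isovaleryl-CoA in leucine breakdown, was measured by 4 probe sets, all in rows that do not move. The leading one had levels of 8.15, 7.59, 8.46 and 8.22 with corticosteroid, against 8.21, 7.06, 7.51 and 7.44 in controls. Control replicate 1 reached the level of the corticosteroid arrays, and the other control arrays lay below all of them. The difference was 0.55 (SE 0.28, 95% interval -0.07 to 1.17, adjusted p = 0.549 in limma). The other IVD probe sets gave differences of 0.49, 0.44 and 0.53. Across the 8 arrays the 4 probe sets correlated with each other at r of 0.86 to 0.97, as a description of probe sets read from the same RNA. With each array left out, the leading probe set gave 0.39 to 0.77, and the probe set with 0.44 gave 0.23 without corticosteroid replicate 3.

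**Figure D2:**
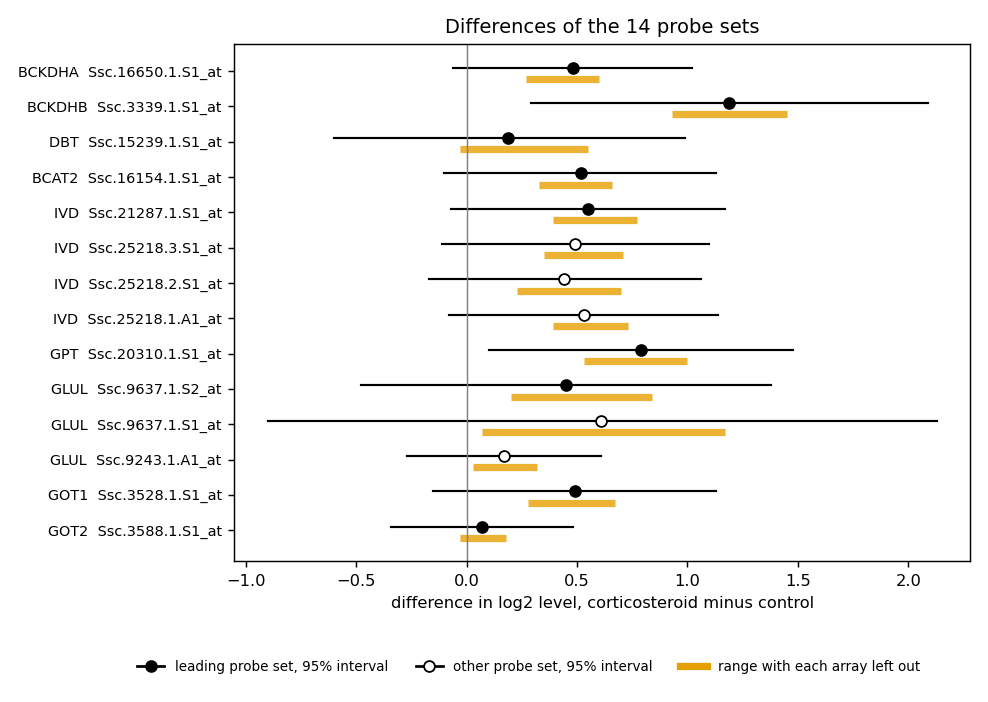
Differences of the 14 probe sets. Points give the difference in log2 level, corticosteroid minus control, with 95% intervals from limma, filled for the leading probe set of a gene, and orange bars give the range when each array is left out. All 14 points lie above 0, and the intervals of BCKDHB and GPT alone exclude 0 before adjustment over probe sets.

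Of the enzymes that form the exported amino acids, alanine aminotransferase had the larger difference. GPT had levels of 6.93, 7.02, 7.14 and 8.06 on corticosteroid arrays, against 7.15, 6.02, 6.53 and 6.29 on control arrays. Corticosteroid replicate 4 stood far above the rest, and control replicate 1 lay above 3 of the 4 corticosteroid arrays. GPT averaged 7.29 ± 0.52 with corticosteroid and 6.50 ± 0.48 in controls (SD, n = 4 each). The difference was 0.79 (SE 0.31, 95% interval 0.10 to 1.48), a 1.73-fold higher mean with an unadjusted p of 0.0298 and an adjusted p of 0.482 in limma. It was 0.37 without control replicate 2 and corticosteroid replicate 4 together, and -0.63 in the rows as deposited.

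Glutamine synthetase (GLUL), a textbook glucocorticoid-induced gene of muscle, followed single arrays more than groups. Its leading probe set had levels of 12.33, 12.72, 12.49 and 10.97 with corticosteroid, against 11.55, 10.92, 11.79 and 12.44 in controls. Corticosteroid replicate 4 and control replicate 2 shared the low end, while control replicate 4 stood among the other corticosteroid arrays. The difference was 0.45 (SE 0.41, 95% interval -0.48 to 1.38, adjusted p = 0.704 in limma). It was 0.84 without corticosteroid replicate 4, 0.20 without control replicate 2, 0.25 without corticosteroid replicate 2 and 0.71 without control replicate 4.

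A second GLUL probe set of similar level showed the same arrays low, with 12.72, 12.72, 12.55 and 10.43 on corticosteroid arrays, against 11.24, 9.86, 12.14 and 12.73 on control arrays. Its difference was 0.61 (SE 0.67), or 0.07 without control replicate 2, 1.02 without control replicate 4 and 1.17 without corticosteroid replicate 4. Its levels correlated with those of the leading probe set at r = 0.96 over the 8 arrays. The third, in a moved row, had a mean level of 7.12, varied by 0.88 over all arrays and differed by 0.17 (SE 0.20), or 0.32 without control replicate 1 and 0.03 without control replicate 3. It correlated with the leading probe set at r = 0.08, so the 3 probe sets named GLUL did not give one pattern. The balance of GPT minus GLUL was -5.40, -5.70, -5.35 and -2.91 on corticosteroid arrays, against -4.40, -4.90, -5.25 and -6.15 on control arrays. Its shift of 0.34 (exact permutation p = 0.8, adjusted p = 0.8) turned to -0.31 when corticosteroid replicate 4 was left out, and to 0.01 when control replicate 4 was.

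The 2 aspartate aminotransferases stood apart in the size of their differences, 0.49 for GOT1 and 0.07 for GOT2, and neither passed the test. GOT1, the cytosolic isoenzyme, had levels of 8.52, 8.18, 8.85 and 9.35 with corticosteroid, against 8.49, 8.49, 7.72 and 8.25 in controls. Corticosteroid replicate 4 was highest and control replicate 3 lowest. The difference was 0.49 (SE 0.29, 95% interval -0.15 to 1.13, adjusted p = 0.584 in limma), 0.31 without control replicate 3 and 0.28 without corticosteroid replicate 4. GOT2, the mitochondrial isoenzyme, had levels of 11.40, 11.39, 11.06 and 11.65 with corticosteroid, against 11.37, 10.99, 11.23 and 11.62 in controls. Its 8 values spanned 0.65, the narrowest range of the 9 leading probe sets, and the groups lay over each other. The difference of 0.07 (SE 0.18, 95% interval -0.34 to 0.48, adjusted p = 0.909 in limma) turned to -0.03 when control replicate 2 was left out, and to -0.02 when corticosteroid replicate 4 was. GOT1 minus GOT2 averaged -2.65 ± 0.48 with corticosteroid and -3.07 ± 0.46 in controls (SD, n = 4 each), a shift of 0.42 (exact permutation p = 0.286, adjusted p = 0.714), or 0.27 without control replicate 3 or corticosteroid replicate 3.

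The arrays of a group did not act alike over these genes. Relative to each gene's mean over the 8 arrays, the 9 genes averaged 0.20, 0.01, 0.51 and 0.33 on corticosteroid replicates 1 to 4, against 0.08, -0.70, -0.31 and -0.12 on control replicates 1 to 4. Corticosteroid replicates 3 and 4 each held the highest value for 4 genes, and corticosteroid replicate 2 held the remaining one. Corticosteroid replicate 4 was highest for BCAT2, GPT, GOT1 and GOT2 and yet lowest for DBT and far below the other corticosteroid arrays for GLUL. On control replicate 1, 7 of the 9 genes lay above their own mean, and on control replicate 3 none did.

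**Figure D3:**
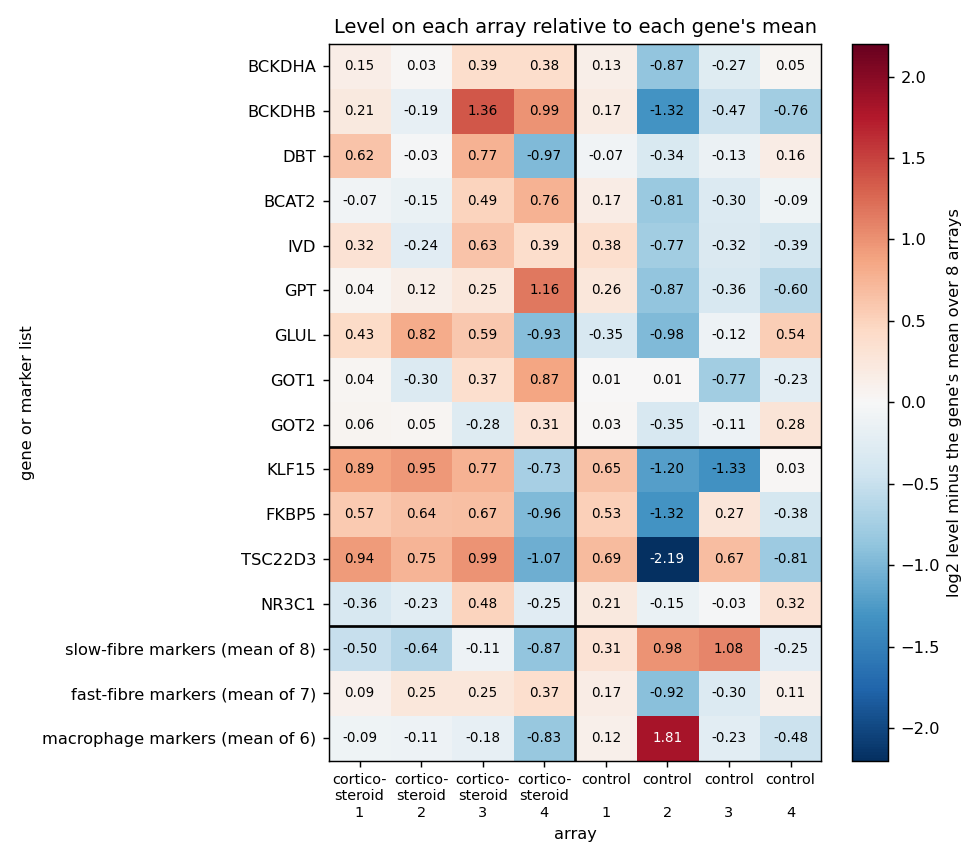
Level on each array relative to each gene's mean. Rows are the 9 genes, 4 genes of glucocorticoid response and the mean of 3 marker lists, columns are the 4 corticosteroid and 4 control arrays, and cells give the log2 level minus the mean over 8 arrays. GLUL, KLF15, FKBP5 and TSC22D3 were below their means on both corticosteroid replicate 4 and control replicate 2, whereas GPT and BCAT2 were high on the first and low on the second.

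Several genes of glucocorticoid response were low on the arrays where GLUL was low. Of 18 such genes tested, 12 lay below their own means on both corticosteroid replicate 4 and control replicate 2, 4 on 1 of these arrays and 2 on neither. These arrays were taken because GLUL was low on them. The share of all probe sets tested below their means on both arrays was not computed, so the 12 cannot be read as particular to this list. SGK1, a kinase, was high on both, at 9.11 on corticosteroid replicate 4 and 9.37 on control replicate 2, against its mean of 7.93. KLF15, a transcription factor that in mouse promotes Bcat2 expression, had levels of 9.55, 9.61, 9.43 and 7.93 with corticosteroid, against 9.31, 7.46, 7.33 and 8.69 in controls, a difference of 0.93 (SE 0.52, adjusted p = 0.572 in limma). FKBP5, a co-chaperone of the glucocorticoid receptor, had 11.15, 11.22, 11.25 and 9.62 with corticosteroid, against 11.11, 9.26, 10.85 and 10.20 in controls. TSC22D3, the leucine zipper protein GILZ, had 12.61, 12.42, 12.66 and 10.60 with corticosteroid, against 12.36, 9.48, 12.34 and 10.86 in controls. All 3 were thus low on corticosteroid replicate 4 and high on control replicate 1, but the lowest array of KLF15 was control replicate 3. FKBP5 and TSC22D3 lie in moved rows. The receptor itself, NR3C1, had 7.81, 7.94, 8.65 and 7.92 with corticosteroid, against 8.38, 8.02, 8.14 and 8.49 in controls.

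Each of the 9 genes was set against KLF15, FKBP5, TSC22D3 and NR3C1 over the 8 arrays, 36 relations in all, chosen after the values were seen. None passed after adjustment, with a smallest adjusted permutation p of 0.532 for Pearson's r and 0.335 for Spearman's rho. GLUL against FKBP5 gave r = 0.76 (exact permutation p = 0.0323, adjusted p = 0.532) and rho = 0.81 (exact permutation p = 0.0218, adjusted p = 0.335). It rested on control replicate 2 and corticosteroid replicate 4, since r was 0.01 over the other 6 arrays. DBT had the largest rho, 0.83 against TSC22D3 (exact permutation p = 0.0154, adjusted p = 0.335), with r = 0.62 (exact permutation p = 0.11, adjusted p = 0.532). DBT against FKBP5 gave rho = 0.79 (exact permutation p = 0.0279, adjusted p = 0.335) and r = 0.70 (exact permutation p = 0.0581, adjusted p = 0.532). Over the same 6 arrays these r were 0.27 and 0.28. GLUL against KLF15 gave r = 0.72 and rho = 0.71 (exact permutation p = 0.0577 and 0.0576, adjusted p = 0.532 and 0.415). Over the 6 arrays left without control replicates 2 and 3, r was 0.73. Those 6 still include corticosteroid replicate 4, where GLUL (10.97) and KLF15 (7.93) were both low. The relation without that array was not computed, so this check differs from the one for FKBP5. BCAT2 against KLF15 gave r = 0.34 and rho = 0.31 (exact permutation p = 0.408 and 0.462, adjusted p = 0.793 and 0.756), with r = -0.62 without control replicates 2 and 3.

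Other branched-chain enzymes above the filter also had higher means. Of 23 other listed enzymes and symbols, 13 were on the array and 11 passed the filter, and all 11 had higher means with corticosteroid. BCAT1, the cytosolic aminotransferase, was below the filter and not tested, with a difference of -0.84 that includes 6.87 on control replicate 2, against 3.83 to 4.21 on the other control arrays. An unadjusted p under 0.05 was reached by 2 of the 11, and an adjusted one by 0. Their median difference was 0.21, against 0.02 over all probe sets tested, and between 9 and 11 of them were higher when each array was left out. PCCA, a subunit of propionyl-CoA carboxylase in isoleucine and valine breakdown, had levels of 7.64, 7.54, 9.19 and 8.19 with corticosteroid, against 7.73, 6.94, 7.06 and 7.32 in controls. Its difference of 0.88 (SE 0.36, adjusted p = 0.499 in limma) was 0.53 without corticosteroid replicate 3. HSD17B10, a dehydrogenase of isoleucine breakdown, differed by 0.56 (SE 0.22, adjusted p = 0.483) in a moved row. HIBCH, a hydrolase of valine breakdown, differed by 0.67 (SE 0.30) and the enoyl-CoA hydratase ECHS1 by 0.46 (SE 0.21). BCKDK, the kinase that inactivates the keto acid dehydrogenase complex, had 8.84, 9.17, 8.75 and 9.20 with corticosteroid, against 9.14, 8.86, 8.55 and 9.19 in controls, and its difference of 0.05 (SE 0.21) turned to -0.08 without control replicate 3, -0.01 without corticosteroid replicate 2 and -0.02 without corticosteroid replicate 4. The count at an unadjusted p under 0.05 ran from 0 to 4 of the 11 with each array left out.

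Amino acid and nitrogen enzymes outside this pathway were mixed. Of 19 tested, 14 had higher and 5 lower means in the treated muscle, and the median difference was 0.25. An unadjusted p under 0.05 was reached by 1 gene and an adjusted one by 0. That gene was ASL, argininosuccinate lyase, with 6.44, 6.22, 6.53 and 6.69 with corticosteroid, against 6.05, 6.42, 5.67 and 5.89 in controls and a difference of 0.46 (SE 0.19, adjusted p = 0.496 in limma). PSPH, which completes serine synthesis, went the other way at -1.03 (SE 0.50), and -0.57 without control replicate 2. ODC1, the entry enzyme of polyamine synthesis, differed by -1.01 (SE 0.61), and -0.58 without control replicate 3. The cystathionine cleaving enzyme CTH differed by 0.84 (SE 0.50), and 1.31 without corticosteroid replicate 4. GPT2 and GLUD1 were not analysed here.

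The purine nucleotide cycle, which releases ammonia from AMP in working muscle, was measured by 3 genes above the filter, and all 3 had higher means with corticosteroid. AMPD1, the muscle AMP deaminase, had levels of 13.10, 13.70, 13.53 and 13.71 with corticosteroid, against 13.48, 12.10, 12.34 and 13.22 in controls, a difference of 0.72 (SE 0.30, unadjusted p = 0.0363, adjusted p = 0.5 in limma). ADSL, adenylosuccinate lyase, had 10.37, 10.36, 10.31 and 11.08 with corticosteroid, against 10.11, 9.55, 9.42 and 10.32 in controls. Its difference was 0.68 (SE 0.26, unadjusted p = 0.0268, adjusted p = 0.482 in limma). ADSSL1, the muscle adenylosuccinate synthase, differed by 0.87 (SE 0.42, adjusted p = 0.539) in a moved row. Control replicates 2 and 3 were the low arrays for all 3 genes. Without control replicate 2 and corticosteroid replicate 4 together the differences were 0.43 for AMPD1, 0.40 for ADSL and 0.36 for ADSSL1. The 2 of 3 genes at an unadjusted p under 0.05 were 0 without control replicate 2, control replicate 3 or corticosteroid replicate 4, and 3 without control replicate 1 or corticosteroid replicate 1.

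The few amino acid transporters tested mostly had lower means, while most shuttle partners had higher ones. Of 23 listed amino acid transporters, 8 were on the array and 5 passed the filter. Of these 5, 4 had lower means with corticosteroid and 0 passed the test. Their median difference was -0.18, or -0.10 without control replicate 2 or corticosteroid replicate 3 and -0.27 without control replicate 3. The 25th percentile of the difference over all probe sets tested was -0.19. SLC3A2, in a moved row, was the one with a higher mean, by 0.28 (SE 0.46). SLC7A1, a carrier of cationic amino acids, differed by -0.97 (SE 0.59), and -0.53 without control replicate 3. SLC1A4, a neutral amino acid carrier, differed by -0.14 (SE 0.14), or -0.22 without control replicate 4, the glutamine carrier SLC1A5 by -0.22 (SE 0.31), or 0.11 without control replicate 2, and the lysosomal SLC38A9 by -0.18 (SE 0.20), or -0.08 without corticosteroid replicate 3 and -0.27 without corticosteroid replicate 1. Of the 4 malate-aspartate shuttle partners tested, 3 had higher means, against 52.8% of all probe sets tested. The mitochondrial carriers SLC25A11 and SLC25A12 differed by 0.39 (SE 0.23) and 0.60 (SE 0.45), or 0.20 and 0.30 without corticosteroid replicate 4, and SLC25A12 by 0.19 without control replicate 3. The malate dehydrogenases MDH1 and MDH2 differed by -0.20 (SE 0.22) and 0.03 (SE 0.18), or -0.06 for MDH1 without control replicate 2 and -0.06 for MDH2 without control replicate 3.

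Among 12 genes of pyruvate supply and fate, which provide the carbon of alanine, 8 had higher means and 0 had an unadjusted p under 0.05, with a median difference of 0.14. The 4 with lower means were PDK4, LDHB, DLAT and PDK3. They differed by -1.03 (SE 1.06), -0.37 (SE 0.32), -0.14 (SE 0.21) and -0.03 (SE 0.29). PDK4 stood at 7.27 on corticosteroid replicate 4, against 12.09 to 12.59 on the other corticosteroid arrays. Without control replicate 2, 5 of the 12 had higher means and the median was 0.00, against 0.08 without corticosteroid replicate 1 and 0.21 without control replicate 4. Pyruvate carboxylase (PC) differed by 0.65 (SE 0.40), or 0.28 without corticosteroid replicate 2, the pyruvate carrier subunit MPC1 by 0.24 (SE 0.13), or 0.15 without control replicate 2, pyruvate kinase PKM by 0.38 (SE 0.24), or 0.19 without control replicate 2, and the lactate dehydrogenase subunit LDHA by 0.29 (SE 0.19), or 0.19 without control replicate 3 and 0.44 without corticosteroid replicate 1. Of 18 genes known to respond to glucocorticoids, 13 had higher means, and an unadjusted p under 0.05 was reached by 2 and an adjusted one by 0. Their median difference of 0.52 was 0.86 without corticosteroid replicate 4, 0.27 without corticosteroid replicate 3, 0.31 without control replicate 2 and 0.30 without control replicate 3. That count of 2, the clock gene PER1 (0.81, SE 0.23) and the transcription factor CEBPB (0.62, SE 0.27), ran from 1 to 6 with each array left out. The stress-response gene SESN1 differed by 0.94 (SE 0.45) and the lipid enzyme LPIN1, 0.43 without control replicate 2, by 0.87 (SE 0.43).

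**Figure D4:**
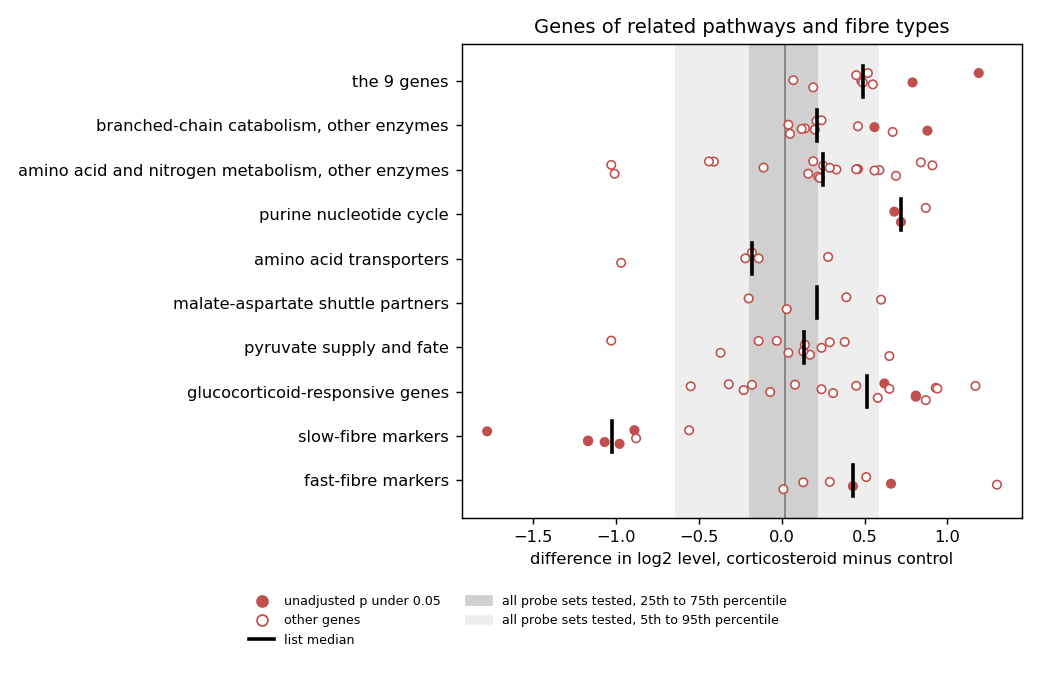
Genes of related pathways and fibre types. Each point is the difference in log2 level of 1 gene, corticosteroid minus control, filled where the unadjusted p is under 0.05, with black bars for list medians and grey bands for all probe sets tested. The 9 genes and the purine nucleotide cycle have medians of 0.49 and 0.72, and the slow-fibre markers one of -1.03.

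Markers of fibre type also differed between the groups, and their part in the result was not tested. In bulk muscle, fewer cells of a type and less RNA per cell cannot be told apart. Of 8 slow-fibre markers on the array, 8 had lower means with corticosteroid, 6 at an unadjusted p under 0.05 and 0 after adjustment. That 6 ran from 4 to 6 with each array left out. It includes the 4 markers in moved rows, TNNI1, TNNC1, MYL2 and ATP2A2. In the rows as deposited all 8 were also lower, with a median of -2.36 against -1.03. The summed linear level of the slow-fibre markers ran from 11521 to 22275 on corticosteroid arrays and from 20054 to 48744 on control arrays. Of 7 fast-fibre markers, 7 had higher means, 2 at an unadjusted p under 0.05 and 0 after adjustment. That 2 was 4 without control replicate 1 or 4 and 1 without control replicate 3, corticosteroid replicate 3 or corticosteroid replicate 4, and their median of 0.43 was 0.25 without control replicate 2. The summed level ran from 85533 to 99854 on corticosteroid arrays and from 54320 to 90540 on control arrays. The fast-fibre markers, relative to their means, stood at 0.09, 0.25, 0.25 and 0.37 on corticosteroid arrays, against 0.17, -0.92, -0.30 and 0.11 on control arrays, so that control replicate 2, low for most of the 9 genes, was low for them too. Of 6 macrophage markers, 6 had lower means with corticosteroid, with sums of 577 to 1080 on corticosteroid arrays and 839 to 3855 on control arrays, the highest on control replicate 2. Without that array 4 of the 6 were lower and their median difference was -0.11, against -0.58 with all arrays, and without corticosteroid replicate 4 as well 3 were lower. Of the tested markers of endothelial cells, adipocytes, fibroblasts and satellite cells, 0 had an unadjusted p under 0.05, and of 2 erythrocyte markers 1 had, with a lower mean. The 5 endothelial markers tested were split, 3 with higher and 2 with lower means, and their median difference was 0.03. Another endothelial marker, KDR, was below the filter and not tested. It differed by -0.60, with all corticosteroid arrays below all control arrays. That held for 2.51% of probe sets tested, a set that does not include KDR. The 3 neutrophil markers on the array were also below the filter, and all 3 had lower means with corticosteroid. The lowest value of any macrophage marker on an array was 5.22 on the log2 scale, below the level of 5.272 used to filter mean levels.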

How the data were processed

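The deposited table holds log2 expression levels per probe set of an Affymetrix porcine array, 1 column per sample, hybridised with biotin-labelled RNA per the labels' protocols. The submitters' processing notes name MAS5. Its version and the scaling between arrays are not given in the sources used here, and no genome build is named, so no coordinates are printed. Groups were taken from the sample titles. Corticosteroid values were re-assigned to probe IDs sorted as text with full stops ignored, an order found from the values in earlier work on this table, which moves 9389 rows. Over the moved rows the group means correlated at r = 0.0997 as deposited and 0.9888 afterwards. Symbols came from the platform's annotation, and all 9 are unchanged in the current RefSeq-based gene table. A gene was led by its probe set of highest mean.

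All 8 arrays entered 1 fit with limma 3.58.1 in R 4.3.3 (lmFit, eBayes with an intensity trend, no further scaling), over 14361 probe sets above the 40th percentile of mean level (5.272), 64 reporter probe sets left out, with Benjamini-Hochberg adjustment. The fit was tested on simulated data. Tables used Python 3.11.15, and exact permutation tests used scipy 1.17.1. Arrays of a group correlated at 0.921 to 0.962 with corticosteroid and 0.894 to 0.961 in controls, and shared at most 8 identical values, so all were kept as separate samples. The genes and lists were chosen with earlier results of these data known. The text names the 9 genes, the 4 members of smallest p in each list described, and KLF15, BCKDK, NR3C1, FKBP5 and TSC22D3. BCAT1, SGK1, KDR, SLC3A2 and the 4 pyruvate genes of lower mean were added after their values were seen. Some muscle and slow-fibre markers are named as well. Alternatives covered a replicate block, scaling, filters, an offset of 16, variance models, array weights, averaged probe sets, rows as deposited and leaving out arrays.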

Additional observations from a re-analysis of the deposited data

Results flagged for a closer look

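Dixon's ratio was computed in 102 groups of 4 arrays, and chance alone marks about 1 group in 20. The groups covered the genes named by the rule above, the other probe sets of the 9 genes and the balances. Genes named outside that rule, among them BCAT1, SGK1, KDR and PDK4, were not screened. The ratio passed the critical value for 4 samples in 9. Of these, 6 concern corticosteroid replicate 4. On that array the second GLUL probe set stood at 10.43, against 12.55 to 12.72 on the other corticosteroid arrays. FKBP5 stood at 9.62, against 11.15 to 11.25, KLF15 at 7.93, against 9.43 to 9.61, and TSC22D3 at 10.60, against 12.42 to 12.66. ADSL stood at 11.08, above 10.31 to 10.37 on the others. The balance of GPT minus GLUL, which shares its low GLUL level, was -2.91 there, against -5.70 to -5.35. The other marked values were ECHS1 on control replicate 1 (11.47, against 10.86 to 10.91), LDHA on corticosteroid replicate 1 (12.66, against 13.18 to 13.29) and NR3C1 on corticosteroid replicate 3 (8.65, against 7.81 to 7.94).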

How the results depend on the processing

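Under 19 alternatives other than the rows as deposited, 166 of 171 member differences kept their sign and 0 had an adjusted p under 0.05 (0.353 to 0.989). The sign turned for GOT2 with array weights (-0.02), for GOT2 without control replicate 2 and corticosteroid replicate 4 together (-0.13), and when single arrays were left out for GOT2 (-0.03 to 0.18) and DBT (-0.03 to 0.55). With the rows as deposited, BCAT2 differed by -2.67, GPT by -0.63, the third GLUL probe set by 0.57, BCAT2 minus BCKDHA by -3.14 and GPT minus GLUL by -1.08. In those rows 2 members and 5454 probe sets had an adjusted p under 0.05. Leaving out single arrays gave 0 to 1 probe sets with an adjusted p under 0.05, 1 to 5 members and 892 to 1783 probe sets at an unadjusted p under 0.05 (1363 in all arrays), and 2160 and 6101 such probe sets with no filter and with the rows as deposited. The balances then ran from -0.08 to 0.12 for BCAT2 minus BCKDHA, -0.49 to 0.12 for DBT minus BCKDHA and -0.31 to 0.63 for GPT minus GLUL. Without control replicate 2 and corticosteroid replicate 4 together they were -0.05, 0.25 and -0.21, and 1 member, GLUL, had an unadjusted p under 0.05. A replicate block gave 3 such members (BCKDHB, IVD and GPT) and 0 adjusted calls, with a BCKDHB difference of 1.19 (limma adjusted p = 0.532). Same-numbered arrays had deviations correlated at r of -0.246, 0.109, 0.105 and 0.053, so the numbers are not treated as a pairing. In every alternative run 0 balances passed after adjustment. With an array left out, or with the replicate block, none could pass. The smallest possible exact permutation p is then above 0.05 before adjustment, and 0.125 for the block. Those runs show only the size of the shifts. The cause of these shifts was not tested. The row order was found from the values of this table and was not checked here against another source.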
